A study of Mus musculus with 37 samples.

Results

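The collagens and laminins are the chains from which basement membranes and collagen fibrils are built. All protein-coding genes of the deposited tables named as a numbered collagen alpha chain or as a laminin alpha, beta or gamma chain were taken, which gave 55 genes out of 32108, 44 collagen and 11 laminin chains. They were followed in ribosome-bound RNA of mouse podocytes, cells whose foot processes cover the outer side of the glomerular capillaries, in a type 2 and a type 1 model of diabetes. Translating ribosome affinity purification (TRAP) pulls down tagged ribosomes of 1 cell type with the RNA they carry, and the deposited table's name gives podocin-Cre, a Cre recombinase driven by a podocyte promoter, as the source of that selectivity.

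All mice were of the C57BL/6 strain. In the type 2 model, diabetic mice carried eNOS-/- with db/db, a mutation of the leptin receptor, and controls carried eNOS-/- alone, so both arms and the whole kidney lacked the endothelial nitric oxide synthase. There were 5 diabetic and 5 control libraries at 3 months of age, and 3 diabetic and 4 control libraries at 6 months. In the type 1 model, diabetic mice had received streptozotocin (STZ), a toxin of insulin-producing cells, and controls had not, and the genotype is not stated. There were 5 diabetic and 4 control libraries at 3 weeks (age 3 months), and 5 diabetic and 5 control libraries at 24 weeks (age 8 months). Every diabetic library of this model had STZ, so effects of the drug and of diabetes cannot be told apart. A single library of total RNA came from whole kidney of an eNOS-/- control at 3 months. No label says that each library is a mouse of its own, and p-values therefore stand for library-to-library spread, which may be technical.

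Type IV collagen is secreted as a trimer of 3 chains. Col4a1 and Col4a2 form the trimer found in nearly all basement membranes. Col4a3, Col4a4 and Col4a5 form the trimer of the mature glomerular basement membrane, which podocytes make and whose mutation causes Alport syndrome. Laminins are trimers of an alpha, a beta and a gamma chain, and the mature glomerular form is Lama5 with Lamb2 and Lamc1, while Lamb1 is the beta chain of the immature form. Fibrillar collagens, chiefly types I, III and V, are the chains of interstitial matrix and scars, made mostly by fibroblasts and related cells. For counting, 20 members were placed on the basement membrane side (6 mature glomerular chains, 3 other type IV chains, 8 other laminins and 3 collagens of the basement membrane zone) and 11 among the fibrillar chains. The remaining 24 are associated with fibrils, form type VI or type VIII and X networks, span the membrane or are of other kinds.

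The TRAP libraries held between 6702120 and 37786025 counts, the kidney library 28033680. The podocyte label was borne out by its markers: 12 podocyte genes such as Nphs1 and Podxl summed to between 23459.8 and 36860.4 CPM (counts scaled to a common library size, with TMM factors) in the type 2 controls at 3 months, against 596 CPM in whole kidney. RNA of other cells was present as well, and 10 proximal tubule markers summed to between 6079 and 9846 CPM in the same TRAP libraries, against 21318 CPM in whole kidney. Of 8 fibroblast markers, Pdgfra, Dcn and Igf1 were detected in all 36 TRAP libraries, at medians of 30.6, 7.07 and 5.43 CPM. Pi16 and Dpt were at 0 in 1 and 4 of them, and Lum, Clec3b and Mfap5 in 11, 13 and 11. Some diabetic libraries stood apart within their group in the members' levels: libraries 4 and 5 of the type 2 mice at 3 months, and libraries 1, 2 and 3 of the type 1 mice at 3 weeks. Results that rest on them are given with and without them. In bulk RNA of this kind, fewer cells of a type and less RNA per cell cannot be told apart.

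In TRAP RNA of controls the chain set was chiefly that of the mature glomerular basement membrane. Levels between genes are compared as FPKM, that is, per gene length and library total. In the type 2 controls at 3 months, Col4a3 led all members at 221 ± 53.6 FPKM (SD, n = 5). It was followed by Col18a1, which carries endostatin, at 174 ± 48.5 FPKM and by Col4a4 at 91.7 ± 16.0 FPKM. The ranges of Col4a3 and Col18a1 overlapped, and both lay wholly above Col4a4. Then came Lamb2 at 55.6 ± 10.4 FPKM, clear of its neighbours on both sides. Col1a2 (28.3 ± 9.26 FPKM), Lama5 (24.3 ± 3.24), Col4a5 (21.04 ± 5.56), Col4a1 (20.96 ± 3.40) and Col4a2 (20.4 ± 2.83 FPKM) followed with overlapping ranges. The 6 mature chains together made up 58.8 ± 1.95% of the members' summed FPKM, and the fibrillar chains 5.45 ± 0.263% (SD, n = 5 each).

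Whole kidney had another mixture. Its highest members were Col4a1 at 35.5 FPKM, Col4a3 at 34.8 FPKM, Col4a2 at 32.4 FPKM and Col18a1 at 31.6 FPKM. The mature chains held 34.3% of its members' FPKM. Of the 50 members detected well enough for the fit of all TRAP libraries, 12 were higher in TRAP than in kidney, 7 of them by more than 2-fold, and 5 were lower by more than 2-fold. Of all 18511 genes, 8653 were higher in TRAP, 8.3% were over 2-fold higher and 8.2% over 2-fold lower. The median ratio of TRAP to kidney was 0.773 over the members and 0.967 over all genes, so most members were lower in TRAP. The members over 2-fold higher were mostly chains of the mature glomerular basement membrane.

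Lamb2 averaged 337 ± 56.8 CPM in TRAP (SD, n = 5), against 42.7 CPM in kidney (95% interval of its count, scaled, 40.3 to 45.2), a ratio of 7.82. The ratios of the other mature chains were 6.22 for Col4a3, 3.92 for Col4a5, 2.95 for Col4a4, 1.93 for Lama5 and 1.30 for Lamc1. All 6 were above 1. Col4a6, which pairs with Col4a5 in other basement membranes, had a ratio of 6.14, though at 15.7 ± 4.71 CPM in TRAP and 2.14 CPM in kidney (1.63 to 2.76) its level was low. Col18a1 had a ratio of 5.39. Col4a1 and Col4a2 went the other way, with ratios of 0.583 and 0.620. None of the 8 other laminins was above 1; Lama4, a chain of vessel walls, was lowest among them at 0.435.

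The fibrillar chains were split. Col1a1, the first chain of type I collagen, had a ratio of 0.550, and Col3a1, the chain of type III, 0.619. Col1a2, the second chain of type I, averaged 350 ± 110 CPM in TRAP (SD, n = 5), against 56.6 CPM in kidney (53.8 to 59.5), a ratio of 6.13. It was thus the only fibrillar chain more than 2-fold higher in TRAP. The kidney value rests on 1 library of total RNA, while the TRAP libraries are labelled as polyA RNA, so no test is possible and the interval covers counting error only.

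**Figure D1:**
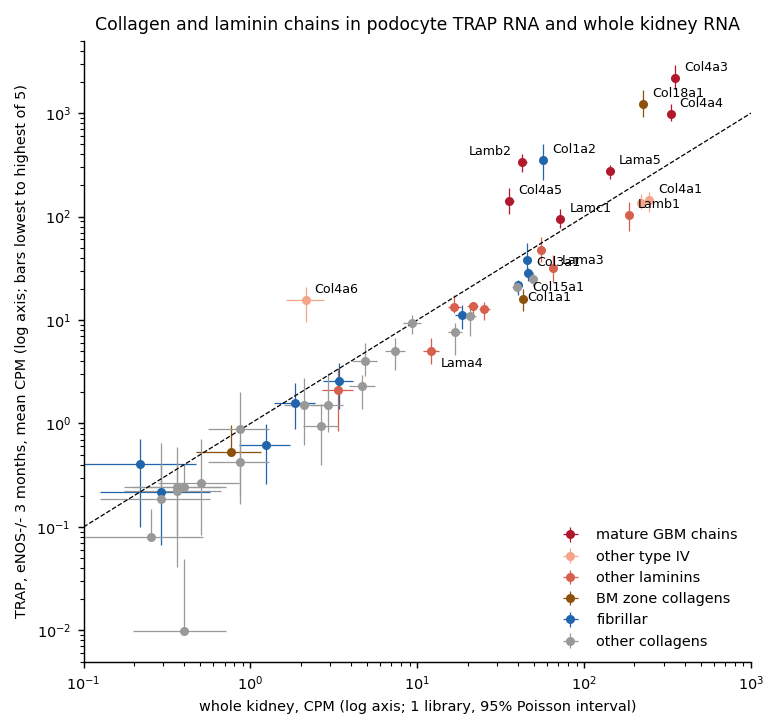
Level of each detected collagen and laminin chain in the 5 TRAP libraries of eNOS-/- controls at 3 months (vertical, mean CPM on a log axis with the lowest and highest library) and in the whole kidney library (horizontal, CPM on a log axis with its 95% Poisson interval). The dashed line marks equal levels. The mature glomerular chains lie above it, as do Col18a1, Col4a6 and, alone among the abundant fibrillar chains, Col1a2.

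At 6 months the chain set in TRAP RNA of type 2 diabetic mice differed widely from that of controls. Markers of podocytes and of other cells moved too, as given further on. Their part in the rises and falls below was not tested. Of the 55 members, 49 passed the filter on low counts, and edgeR's quasi-likelihood test called 25 (adjusted p under 0.05 over all 17180 genes tested), 20 higher and 5 lower. In that comparison 22.9% of all genes were called, 11.2% higher and 11.7% lower. The median log2 change of the members tested was 1.31, against -0.01 over all genes. The 5 lower members all lay on the basement membrane side, and 4 of them were mature glomerular chains. Without diabetic library 3, which had the fewest counts of all TRAP libraries, 17 members were called. The 8 lost were Lama5, Lamc1, Lamb1, Lamb3, Col7a1, Col5a1, Col5a3 and Col24a1.

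All 3 chains of the mature type IV trimer fell. Col4a3 had 825, 1084 and 312 CPM in the diabetic libraries, against 1756, 2097, 2030.5 and 1945 CPM in the controls. The groups did not overlap, and the diabetic mean was well under the control mean. The log2 change was -1.39 (SE 0.315, adjusted p = 0.00495, edgeR). Col4a4 had 513, 489.7 and 285 CPM in the diabetic libraries, against 806, 914, 914 and 819 CPM in the controls, a log2 change of -0.99 (SE 0.207, adjusted p = 0.00293). Col4a5 had 54.0, 74.7 and 30.3 CPM, against 116, 136, 147 and 113 CPM in the controls (log2 change -1.25, SE 0.260, adjusted p = 0.00293). In each of the 3 genes every diabetic library lay below every control, and diabetic library 3 was the lowest. Here and elsewhere, the share of all genes without overlap is not given, so separation of groups is a description only.

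The laminin trimer of the same membrane did not move as 1 unit. Lamb2 fell, with 173, 189 and 71.3 CPM in the diabetic libraries, against 303, 379, 432 and 358 CPM in the controls (log2 change -1.33, SE 0.253, adjusted p = 0.00166). Its partners rose: Lama5 had 529, 282 and 684 CPM in the diabetic libraries, against 251, 406, 320.1 and 250.4 CPM in the controls. The Lama5 groups overlapped through diabetic library 2. The log2 change of Lama5 was 0.72 (SE 0.243, adjusted p = 0.0393) and that of Lamc1 0.60 (SE 0.185, adjusted p = 0.0271). Both calls were lost when diabetic library 1 or 3 or control library 1 or 4 was left out, and that of Lama5 also without control library 3. Lamb1, the beta chain of the immature form, rose, with 244, 156 and 345 CPM in the diabetic libraries, against 132, 135, 125 and 114 CPM in the controls (log2 change 0.99, SE 0.284, adjusted p = 0.0184).

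The ubiquitous type IV chains went the other way from the mature ones. Col4a1 had 631, 299.8 and 441 CPM in the diabetic libraries, against 129.8, 153, 195 and 158 CPM in the controls, a log2 change of 1.54 (SE 0.388, adjusted p = 0.00997). Col4a2 moved alongside, with a log2 change of 1.60 (SE 0.368, adjusted p = 0.00588). Neither gene's groups overlapped. The call of Col4a1 was lost without diabetic library 1. Of the remaining chains, Lamb3, which belongs to the laminin of epithelial anchoring structures, rose by 2.59 on the log2 scale (adjusted p = 0.0047). Col7a1, the anchoring fibril chain, rose by 3.39 (adjusted p = 0.0219), at a mean of 5.97 CPM in diabetic libraries and 0.567 CPM in controls. Col18a1 fell by 0.92 (SE 0.230, adjusted p = 0.00888), with 587, 418 and 542 CPM in the diabetic libraries, against 672, 1119.9, 1211 and 941 CPM in the controls.

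The order of levels per length was changed as well. In type 2 diabetic libraries at 6 months Col18a1 (83.1 ± 15.9 FPKM), Col4a3 (82.4 ± 41.3), Col4a1 (75.8 ± 27.4) and Col4a2 (70.0 ± 24.2 FPKM; SD, n = 3) overlapped in range. The ratio of Col4a1 plus Col4a2 to Col4a3 plus Col4a4, in FPKM, was 1.37, 0.570 and 2.06 in the diabetic libraries, against 0.136, 0.147, 0.184 and 0.165 in the controls. The ratio of Lamb1 to Lamb2 was 0.866, 0.508 and 2.97 in the diabetic libraries, against 0.266, 0.219, 0.177 and 0.195 in the controls. For both ratios every diabetic library lay above every control, and they are given as a description. Whole kidney had 1.04 and 2.65 for the same ratios.

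Of 11 fibrillar members, 10 were tested at 6 months, 6 rose and none fell. The abundant Col1a2 was not among those called, nor was Col27a1, a minor fibrillar chain of cartilage, at 66.8 ± 17.8 CPM in diabetic libraries (SD, n = 3) and 51.3 ± 26.8 CPM in controls (SD, n = 4), with overlapping groups (log2 change 0.40, SE 0.352, adjusted p = 0.434). Without diabetic library 3, 3 of the 6 remained called. Col1a1 had 383, 159 and 259.8 CPM in the diabetic libraries, against 13.0, 23.5, 29.3 and 14.8 CPM in the controls, a log2 change of 3.75 (SE 0.808, adjusted p = 0.00556). Col3a1 had 244, 98.9 and 163 CPM in the diabetic libraries, against 21.2, 27.3, 36.4 and 23.5 CPM in the controls (log2 change 2.66, SE 0.652, adjusted p = 0.00999). Col5a1 and Col5a2, chains of type V collagen, which is built into type I fibrils, rose by 1.92 (SE 0.510, adjusted p = 0.0136) and 3.31 (SE 0.706, adjusted p = 0.00394). The lower-level Col5a3 and Col24a1 rose by 2.82 and 2.43. In none of these genes did diabetic and control libraries overlap, for which no share of all genes is given. At the level of means, Col5a2 had 24.7 ± 11.01 CPM in diabetic libraries (SD, n = 3) and 2.52 ± 0.573 CPM in controls (SD, n = 4), and Col5a1 had 45.8 ± 20.3 CPM and 12.2 ± 3.54 CPM. The calls of Col5a1 and of Col6a3 were also lost without diabetic library 1.

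Col1a2 did not follow Col1a1, although both chains make up the same type I trimer. It had 327, 207 and 189.6 CPM in the diabetic libraries, against 224, 338, 421 and 211 CPM in the controls, a log2 change of -0.29 (SE 0.338, adjusted p = 0.562). The ratio of Col1a2 to Col1a1, in FPKM, was 0.450, 0.691 and 0.386 in the diabetic libraries, against 9.09, 7.59, 7.59 and 7.54 in the controls. The kidney library had 0.744. Over the 36 TRAP libraries, Col1a2 had a Pearson r of log2 CPM of -0.12 with Col1a1 and of 0.485 with the podocyte gene Nphs1. With the group means removed, r was 0.322 with Col1a1, of the other sign, and 0.465 with Nphs1. These points share libraries and groups, so the values are descriptions only.

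Of 5 type VI chains tested 3 rose, and of 6 fibril-associated chains tested 1 rose, Col12a1. Col6a1, Col6a2 and Col6a3 form the type VI trimer, a beaded network near cell surfaces. Col6a1 had 67.5, 32.6 and 106 CPM in the diabetic libraries, against 8.30, 11.7, 10.5 and 9.25 CPM in the controls (log2 change 2.80, SE 0.515, adjusted p = 0.00167). Col6a2 rose by 2.86 (SE 0.546, adjusted p = 0.00205) and Col6a3 by 1.48 (SE 0.414, adjusted p = 0.0173). Col12a1, which sits on fibril surfaces, had 73.6, 26.0 and 70.4 CPM in the diabetic libraries, against 11.3, 14.2, 9.06 and 7.21 CPM in the controls (log2 change 2.46, SE 0.457, adjusted p = 0.0017). The other fibril-associated chains were not called, among them Col14a1 (0.44, adjusted p = 0.361), Col16a1 (1.55, adjusted p = 0.0532) and Col19a1 (-0.92, adjusted p = 0.486). Col8a1, of the network found in vessel walls, and the membrane-spanning Col13a1 rose by 2.23 and 2.79. In summed FPKM, fibrillar chains were 15.2 ± 2.94% of the members in diabetic libraries (SD, n = 3), against 5.40 ± 0.954% in controls (SD, n = 4). The mature chains were 34.8 ± 10.1%, against 60.2 ± 2.89% in controls.

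**Figure D2:**
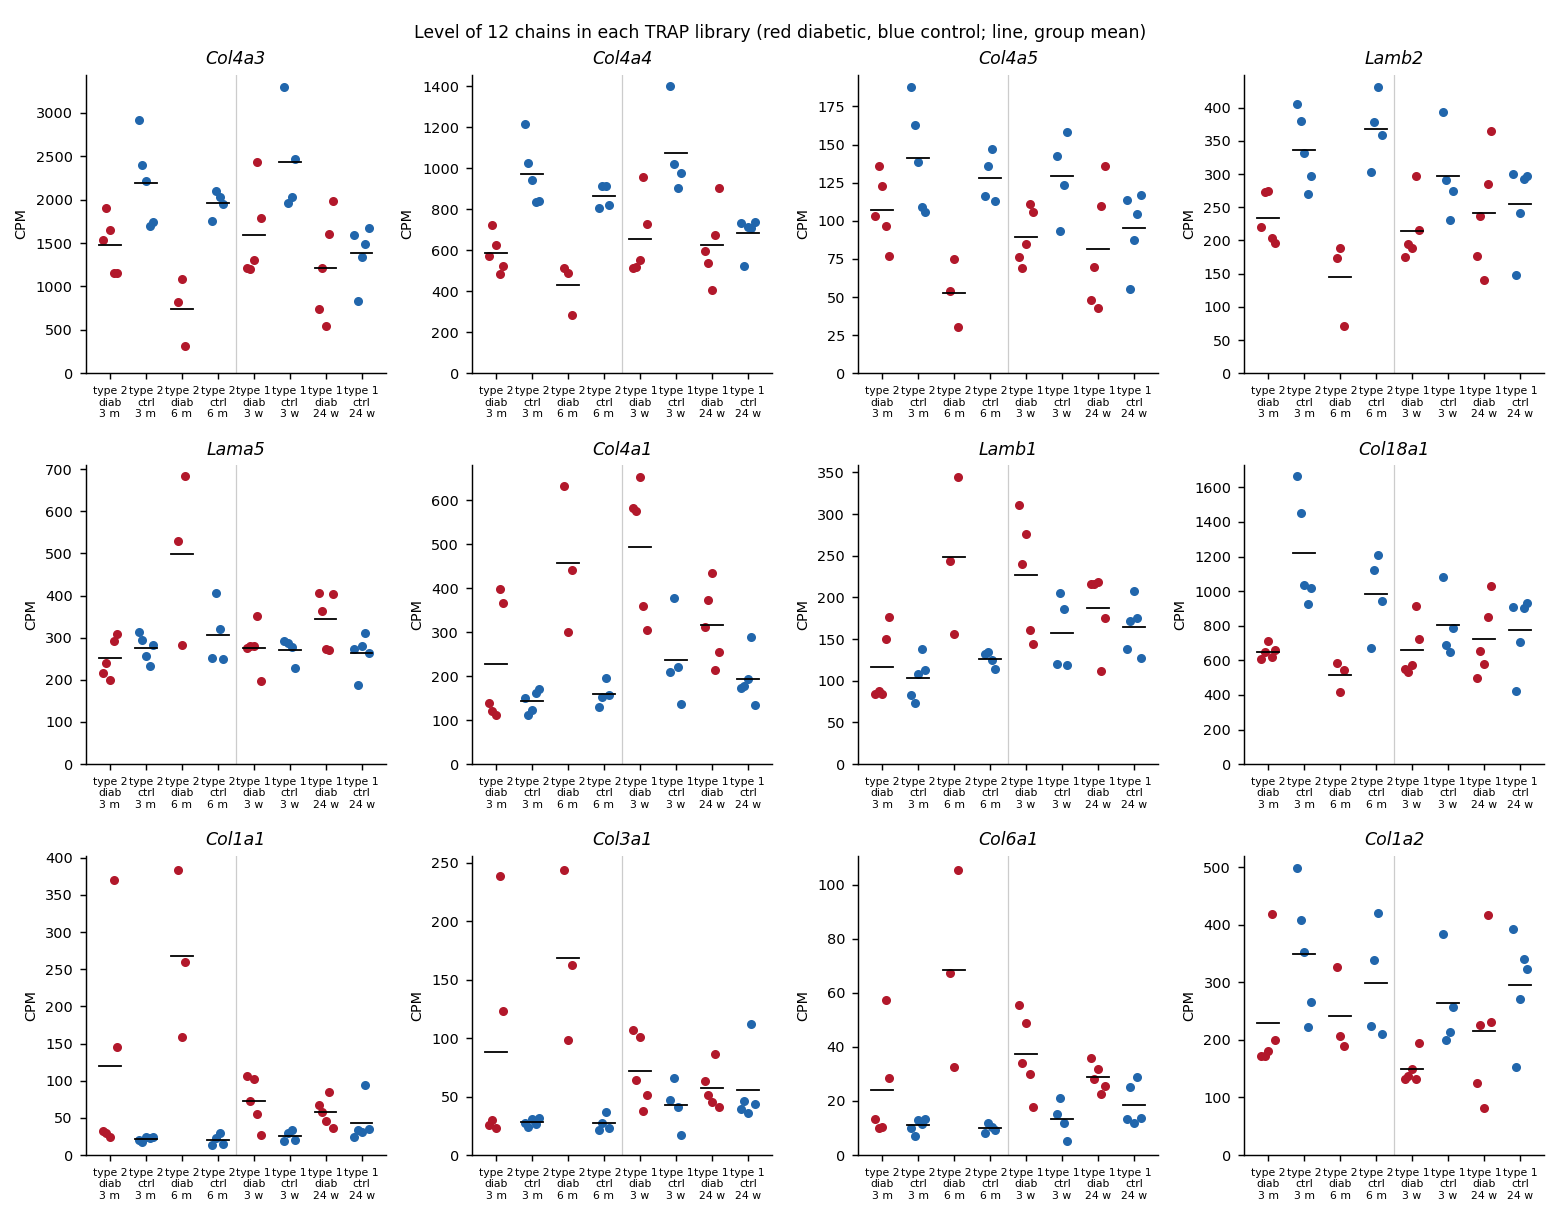
CPM of 12 chains in each of the 36 TRAP libraries, with diabetic libraries in red and controls in blue. Group means are lines, and a grey line parts the type 2 from the type 1 model. At 6 months of type 2 diabetes Col4a3, Col4a4, Col4a5, Lamb2 and Col18a1 lie below all their controls and Col4a1, Lamb1, Col1a1, Col3a1 and Col6a1 above them, while Lama5 and Col1a2 overlap.

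Markers of podocytes and other cells moved as well at 6 months, where 11.2% of all genes were called higher and 11.7% lower. Of 12 podocyte markers 10 fell, and their summed level was 3073 to 15058 CPM in diabetic libraries, against 25743 to 30310 CPM in controls. None of the 12 had a positive log2 change, and their median was -1.51. Of 10 mesangial and smooth muscle markers 5 rose, and their sum was 267 to 765 CPM in diabetic libraries, against 171 to 222 CPM in controls. Of 10 macrophage markers 6 rose (166 to 285 CPM in diabetic libraries, against 73.3 to 119 CPM in controls), and of 8 parietal epithelial markers 5 rose (325 to 526 CPM, against 217 to 301 CPM). Of 7 fibroblast markers tested 3 rose, and the list summed to 67.3 to 109 CPM in diabetic libraries, against 25.6 to 42.4 CPM in controls. All 7 had a positive log2 change, with a median of 1.54. Those that rose were Pdgfra, at a mean of 63.7 CPM in diabetic libraries and 22.1 CPM in controls, Igf1 (15.02 and 4.83 CPM) and Mfap5 (2.28 and 0.0897 CPM). Mfap5 had a median of 0.215 CPM over the TRAP libraries. A gene so low passes a filter on low counts through the libraries where it is high, so its rise adds no support to these counts. Of 10 proximal tubule markers 5 fell, of 8 distal markers 2 fell, and of 10 endothelial markers 1 rose and 1 fell. The part of these cells in the members' changes was not tested.

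The machinery around the chains split in the same comparison, where 11.2% of all genes were called higher and 11.7% lower. Of 17 genes of chain folding and modification that were tested, 10 fell and 1 rose, with a median log2 change of -0.68. Lowest in p were P3h2, a collagen prolyl 3-hydroxylase, at -1.84 (adjusted p = 0.00131), and Serpinh1, the collagen chaperone Hsp47, at -1.30 (adjusted p = 0.00386). P4ha2, a prolyl 4-hydroxylase, and Crtap, a partner of prolyl 3-hydroxylation, fell by 0.93 and 0.63. Of 14 genes of collagen processing and cross-linking, 3 rose and 2 fell: Adamts2, which trims procollagen, rose by 1.63 and Lox, which cross-links fibrils, by 2.57, while Pcolce and Pxdn, the enzyme that cross-links type IV collagen, fell by 1.08 and 0.69.

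Among 16 fibril partners and matrix glycoproteins 6 rose and none fell, with Fbn1 (2.32), Fn1, the fibronectin gene (2.52), Fbln2 (1.57) and Eln, the elastin gene (1.71 on the log2 scale), lowest in p. Of 12 other basement membrane genes, Npnt, the nephronectin gene, fell by 1.51 and Egfl6 by 1.54, while Papln, Nid1 and Hspg2 rose by 2.33, 1.55 and 1.17. Of 12 collagen and laminin receptors 4 rose and 2 fell, where 11.2% of all genes were called higher and 11.7% lower. Itga3, the alpha chain of the podocyte's main laminin receptor, fell by 1.21 (SE 0.178, adjusted p = 0.000244), and Itga6 and Itgb4, which together form another laminin receptor, rose by 1.67 and 2.58. Of 15 matrix proteases and inhibitors 4 rose and 1 fell, led by Adamts1 (2.33), Mmp14 (3.22) and the lower Mmp23 (-1.62).

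At 3 months of the type 2 model, where 3.99% of all genes were called, the same lists held between 0 and 2 called genes each. None of 17 folding genes passed the test (edgeR), and their median log2 change was -0.16. Adamts2 of the processing list and Frem1 of the basement membrane list rose by 1.25 and 1.21. Bgn and Fn1 of the fibril partners rose by 1.07 and 1.90. Itga3 fell by 0.71, and Itga11, a collagen receptor, rose by 3.12. Timp1, an inhibitor of matrix metalloproteinases, rose by 3.84. At 24 weeks of the type 1 model, 0.897% of all genes were called. Thbs1, the thrombospondin-1 gene, was the only gene called on the 6 lists there, at 1.06.

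At 3 months 5 members were called in the type 2 model, of 49 tested (edgeR, adjusted p under 0.05), 3 higher and 2 lower, where 3.99% of all genes were called, 2.03% higher and 1.96% lower. The median log2 change of the members tested was 0.42, against 0.04 over all genes. With 1 library left out at a time, 2 members were called without control 1, 3 without control 3, 4 or 5, and 8 without diabetic library 3. Col18a1 had 607, 647, 713, 619.8 and 659 CPM in the diabetic libraries, against 1665, 1452, 1033, 923 and 1016 CPM in the controls, without overlap (log2 change -0.92, SE 0.187, adjusted p = 0.00722).

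Of the mature chains only Col4a4 passed the test at 3 months. It had 573, 722, 624, 486 and 523 CPM in the diabetic libraries, against 1215, 1024, 944, 833 and 840.4 CPM in the controls (log2 change -0.74, SE 0.168, adjusted p = 0.0148). Col4a3 had a log2 change of -0.58 (SE 0.252, adjusted p = 0.248), Lamb2 of -0.54 (adjusted p = 0.164) and Col4a5 of -0.41 (adjusted p = 0.348). In each of these 3 the groups overlapped. Col5a3 and Col8a1 were called at 2.51 (adjusted p = 0.0377) and 1.53 (adjusted p = 0.0314).

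Col1a1 and Col3a1 stood high at 3 months in diabetic libraries 4 and 5 and not in the other diabetic libraries. Col1a1 had 31.7, 29.1 and 24.0 CPM in diabetic libraries 1 to 3 and 371 and 146 CPM in libraries 4 and 5, against 20.6, 17.3, 24.5, 22.5 and 24.6 CPM in the controls. Col3a1 had 25.7, 29.6 and 23.3 CPM in the first 3 and 239 and 123 CPM in libraries 4 and 5, against 27.3, 23.8, 30.8, 26.9 and 32.0 CPM in the controls. Neither was called (adjusted p = 0.0556 and 0.117). Col5a1, Col5a2 and Col5a3 were also highest in diabetic libraries 4 and 5. Col27a1, with its values given further on, did not share the split and was lowest in diabetic library 4 (log2 change 0.68, adjusted p = 0.247). The change of Col1a2 was -0.62 on the log2 scale (adjusted p = 0.264). Leaving out libraries 4 and 5 moved it to -1.004 (adjusted p = 0.0567). Col4a1 showed the same split, with 139, 120.0, 111, 399 and 366 CPM in the diabetic libraries, against 149, 111, 124, 161 and 172 CPM in the controls. The same libraries held the lowest mature share, 37.0 and 42.2% of the members' FPKM, against 60.1, 64.7 and 61.6% in the other diabetic libraries and 56.4 to 61.1% in the controls.

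Without libraries 4 and 5, a setting chosen after seeing the data, 3 members were called at 3 months. Col18a1 remained called, Col4a4, Col5a3 and Col8a1 were lost, and Lama1 was added. The log2 changes of Col4a1, Col4a2 and Col3a1 were then -0.22, -0.10 and -0.11. Marker sums within the diabetic group at 3 months also stretched widely, from 44.2 to 287 CPM for macrophage genes, against 57.7 to 79.8 CPM in the controls. The mesangial and smooth muscle sum ran from 242 to 836 CPM, against 161 to 197 CPM in the controls, and the podocyte sum from 14158 to 27525 CPM, against 23459.8 to 36860.4 CPM in the controls. In all 3 sums libraries 4 and 5 lay at the end away from the controls. With all libraries, 2.03% of all genes were called higher and 1.96% lower at 3 months. Of the marker genes, 2 mesangial and smooth muscle and 2 parietal epithelial ones rose, and 1 each of the podocyte, endothelial and proximal tubule lists fell. The part of these cells in the members' changes was not tested.

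The difference between the type 2 changes at 6 and at 3 months was called for none of the members, and for 0% of all 17180 genes (edgeR interaction, adjusted p under 0.05). The unadjusted p was under 0.05 for 13 members and 3252 genes, led by Lamb3 (2.17, adjusted p = 0.165) and Lama5 (0.86, adjusted p = 0.179). Without diabetic libraries 4 and 5 at 3 months, 19 members were called, among them Col1a1, Col3a1, Col4a1, Col4a2, Lamb1 and Lama5. That setting was chosen after seeing the members' levels in these libraries, so the count is no test of a difference between the ages. Without diabetic library 2 at 6 months, 6 members were called: Lama5, Lamb3, Col4a5, Col12a1, Lamb2 and Col23a1. For these fits with libraries left out, the share of all genes called is not given, so the 19 and the 6 have no background. DESeq2 on all libraries called none. The called changes at 6 months are thus not shown to differ from those at 3 months with all libraries in the fit.

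In the type 1 model at 3 weeks, 10 of 48 members tested were called (edgeR, adjusted p under 0.05), 8 higher and 2 lower, where 6.5% of all genes were called, 3.78% higher and 2.72% lower. The median log2 change of the members was 0.12, against 0.00 over all 16279 genes. The number of genes detected differed as well, with 15558 to 16362 in the controls and 18044 to 21050 in diabetic libraries 1, 2, 3 and 5. Diabetic library 4 held 14320. The part of this in the members' changes was not tested. Col4a1 had 582, 575, 652, 359.5 and 304 CPM in the diabetic libraries, against 208, 378, 221 and 137 CPM in the controls (log2 change 1.02, SE 0.299, adjusted p = 0.0416). Col4a2 had a log2 change of 1.20 (SE 0.345, adjusted p = 0.0392). Libraries 1 to 3 were the highest for both, and libraries 4 and 5 overlapped control library 2. Col4a4 fell, with 515, 520.0, 554, 956 and 726 CPM in the diabetic libraries, against 1401, 1018, 903 and 978 CPM in the controls (log2 change -0.75, SE 0.216, adjusted p = 0.038). Its groups overlapped through diabetic library 4. With 1 library left out at a time, the calls of Col4a1, Col4a2 and Col4a4 were each lost in 6 of 9 fits.

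Col4a3, Col4a5 and Lamb2 had log2 changes of -0.65, -0.56 and -0.51 at 3 weeks and were not called (adjusted p = 0.223, 0.233 and 0.220). Col1a1 rose, with 106, 72.6, 103, 55.8 and 27.5 CPM in the diabetic libraries, against 18.6, 29.7, 33.3 and 19.8 CPM in the controls (log2 change 1.49, SE 0.400, adjusted p = 0.0288). Col5a2 rose by 1.61 (SE 0.410, adjusted p = 0.0201), Col6a1 by 1.46 (SE 0.373, adjusted p = 0.0211) and Col8a1 by 1.72 (SE 0.488, adjusted p = 0.0354). In the 9 fits that leave out 1 library, the calls of Col1a1 and Col8a1 were each lost in 5. Those of Col5a2 and Col6a1 were each lost in 2, and those of Col12a1 and Col27a1 in none. Col1a2 was again apart, with 132 to 194 CPM in diabetic libraries, against 199 to 384 CPM in controls, and no overlap, but it was not called (log2 change -0.85, adjusted p = 0.127). The FPKM ratio of Col1a2 to Col1a1 was 0.661 to 3.73 in diabetic libraries, against 3.38 to 10.9 in controls.

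Col27a1 and Col12a1 had the largest changes of the 10 members called at 3 weeks. Col27a1 had 9.65, 9.46, 10.5, 7.27 and 12.5 CPM in the diabetic libraries, against 46.6, 141, 78.1 and 48.0 CPM in the controls. All 5 diabetic libraries lay below all controls, including libraries 4 and 5, with a log2 change of -3.04 (SE 0.485, adjusted p = 0.00107). Col12a1 had 89.6, 115, 116, 9.17 and 26.1 CPM in the diabetic libraries, against 3.18, 12.7, 12.04 and 7.95 CPM in the controls (log2 change 2.96, SE 0.648, adjusted p = 0.00942). Here only libraries 1, 2, 3 and 5 were above all controls.

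Without diabetic libraries 1, 2 and 3, a setting chosen after seeing the data that left 2 diabetic libraries, no member was called at 3 weeks by edgeR, and 5 had an unadjusted p under 0.05. Col27a1 then had a log2 change of -3.00 (adjusted p = 0.125). With 1 library left out, 2 were called without diabetic library 3, 4 without diabetic library 1 or 2 or control 4, and 5 without control 1. Marker sums moved within the group as well: the mesangial and smooth muscle sum was 233 to 621 CPM in diabetic libraries, against 207 to 449 CPM in controls, and the macrophage sum 98.7 to 299 CPM, against 48.1 to 108 CPM. The podocyte sum was 10621, 11307 and 10293 CPM in diabetic libraries 1 to 3 and 23522 and 20646 CPM in libraries 4 and 5, against 11599.8 to 24503 CPM in controls. With all libraries, 3.78% of all genes were called higher and 2.72% lower at 3 weeks. Of 10 macrophage markers 5 rose, and of 12 podocyte markers none was called (edgeR), with 1 of 12 positive. Of 10 proximal tubule markers 4 fell, and their sum was 5526 to 9909 CPM in diabetic libraries, against 9240 to 16483 CPM in controls. The mesangial and smooth muscle, parietal epithelial and distal tubule lists had 2 markers each that rose, and the fibroblast and endothelial lists 1 each. The part of these cells in the members' changes was not tested. Among the pathway lists, 5 of 16 fibril partners rose, with Bgn, the biglycan gene (1.58), Fbn1 (1.60), Fn1 (2.28) and Thbs1 (1.20) lowest in p. Nid1, Tinagl1 and Hspg2 of the basement membrane rose by 1.55, 1.38 and 1.20, and Fras1 fell by 1.07. Of the other lists, Lox, Ddr2, a collagen receptor, Mmp14 and Adamts1 rose by 1.70, 1.14, 1.70 and 1.29, and Timp3 fell by 0.59. None of 17 folding genes was called.

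At 24 weeks of type 1 diabetes 1 of 48 members was called by edgeR, where 0.897% of all genes were called, 0.448% higher and 0.448% lower. In 7 of the 10 fits that leave out 1 library, that call was lost. An unadjusted p under 0.05 was reached by 8 members and by 1745 of all 16279 genes. Col4a3 (-0.21, adjusted p = 0.887), Col4a4 (-0.15, adjusted p = 0.89) and Lamb2 (-0.11, adjusted p = 0.939) were not called, nor were Col4a1 (0.70, adjusted p = 0.308) and Col1a1 (0.40, adjusted p = 0.807).

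The spread within the diabetic group was wide at 24 weeks. Col4a3 ranged from 543 to 1983 CPM in diabetic libraries, against 837 to 1676 CPM in controls. The ratio of Col4a1 plus Col4a2 to Col4a3 plus Col4a4 ran from 0.266 to 1.33 in diabetic libraries, against 0.161 to 0.394 in controls. The summed podocyte markers ran from 5266 to 24189 CPM in diabetic libraries, against 10524 to 26349 CPM in controls. The difference between the type 1 changes at 24 and 3 weeks was called for none of the members and for 0% of all genes, with an unadjusted p under 0.05 for 3 members and 1092 genes (edgeR). DESeq2 called none of the members either.

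Col4a6, Lama1, Lama4 and Lama3 were called in none of the 4 diabetic comparisons. Col4a6 had means between 10.8 CPM (type 1 diabetic libraries at 3 weeks) and 19.1 CPM (type 2 controls at 6 months) over the TRAP groups. Lama1, the alpha chain of the immature glomerular laminin, averaged 37.4 ± 9.39 CPM in type 2 diabetic libraries at 6 months (SD, n = 3) and 35.97 ± 10.5 CPM in controls (SD, n = 4). Lama4 stayed between 3.66 and 8.88 CPM as a group mean and was at 0 in 1 diabetic library of the type 1 model at 3 weeks. Lama3, the alpha chain that joins Lamb3 in the anchoring laminin, averaged 27.4 ± 8.82 CPM in type 2 diabetic libraries at 6 months, against 44.5 ± 17.2 CPM in controls, with overlapping groups and no call (adjusted p = 0.144, edgeR). Its largest change was at 3 weeks of the type 1 model, with a log2 change of -1.20, overlapping groups and no call (adjusted p = 0.0605, edgeR).

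**Figure D3:**
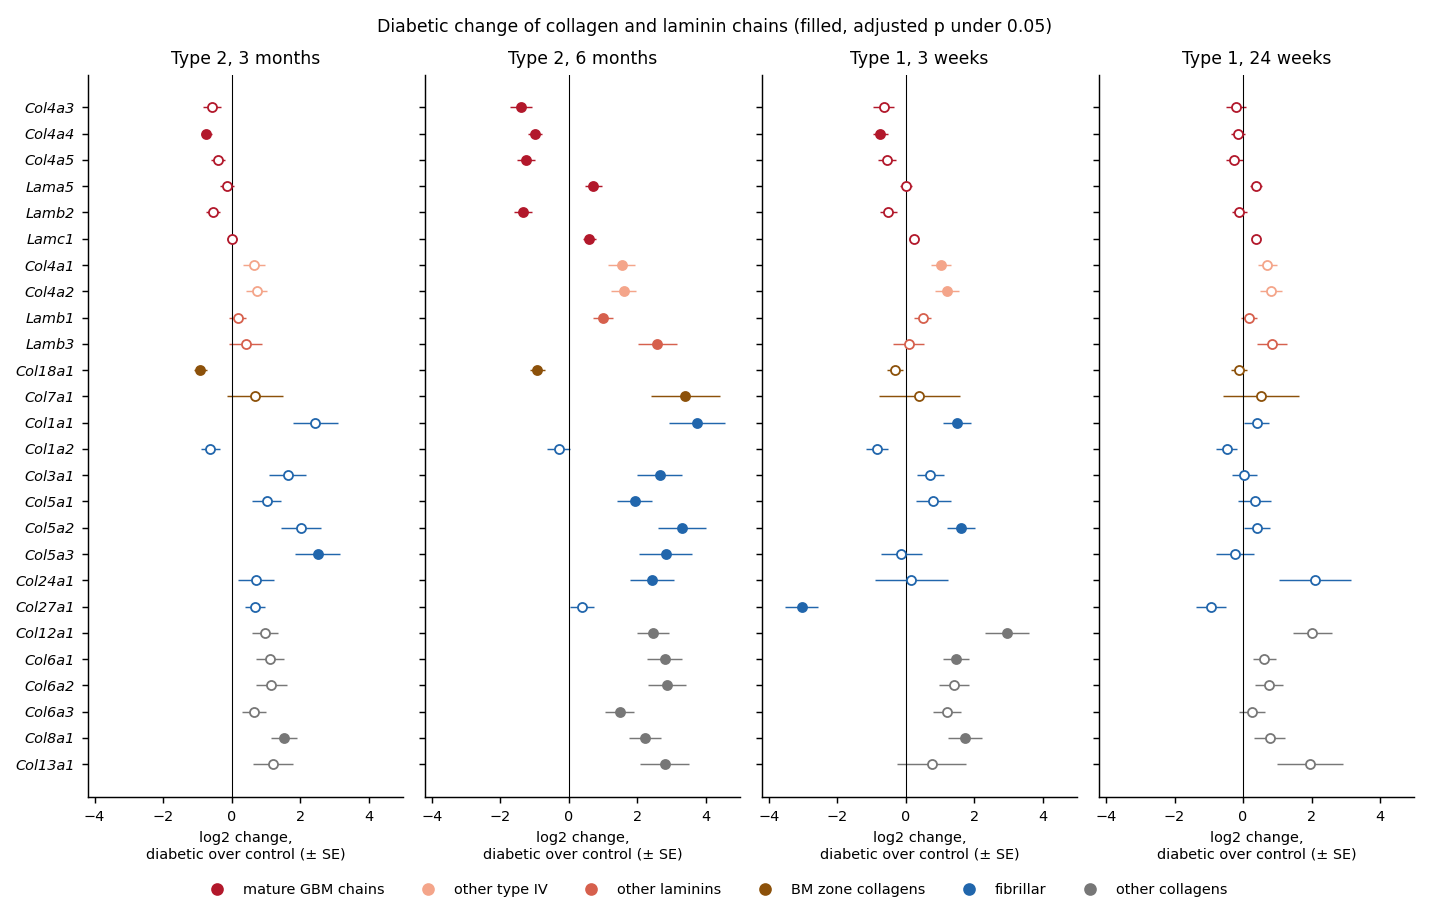
Log2 change of diabetic over control libraries, with its standard error, for 26 chains called in at least 1 comparison or followed in all 4. Filled points have an adjusted p under 0.05 (edgeR), and colours give the class. Filled points are many at 6 months of the type 2 model, where mature type IV chains and Lamb2 lie left of 0, and no chain drawn is filled at 24 weeks of the type 1 model.

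Set against each other, the late changes of the 2 models (6 months of type 2 and 24 weeks of type 1) differed for none of 50 members tested by edgeR, where 0.438% of all 18511 genes were called, 0.178% higher and 0.259% lower. An unadjusted p under 0.05 was reached by 20 members and 2802 genes, and DESeq2 called 8 members. Among the lowest p were those of Col1a1 (difference of the log2 changes 3.34, adjusted p = 0.0637), Col5a2 (2.90, adjusted p = 0.071) and Lamb2 (-1.24, adjusted p = 0.0868). Without diabetic library 2 of the type 2 model at 6 months, 7 members were called. The share of all genes called is not given for that fit or for DESeq2, so these 2 counts have no background beside them. Ages differ between the models, and the genotype of the type 1 mice is not stated. The larger number of calls in the type 2 model at 6 months is therefore not shown to be particular to it.

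The early changes differed for 1 member, Col27a1, where 0.94% of all genes were called, 0.373% higher and 0.567% lower. It had 65.9, 73.3, 42.6, 36.1 and 84.3 CPM in type 2 diabetic libraries at 3 months, against 30.0, 26.0, 39.4, 55.3 and 37.7 CPM in their controls, with overlapping groups. Its type 1 values at 3 weeks were those given with that comparison. The difference of the log2 changes was 3.68 (SE 0.591, adjusted p = 0.00276, edgeR on all 36 TRAP libraries). Without type 1 diabetic libraries 1, 2 and 3 it was 3.69 and no longer passed the test (adjusted p = 0.0516). At 24 weeks of the type 1 model it had 132, 33.6, 30.8, 28.9 and 20.9 CPM in diabetic libraries, against 73.1, 87.0, 139, 110.2 and 59.8 CPM in controls, a log2 change of -0.94 that was not called (adjusted p = 0.438). All but diabetic library 1 lay below the controls there.

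**Figure D4:**
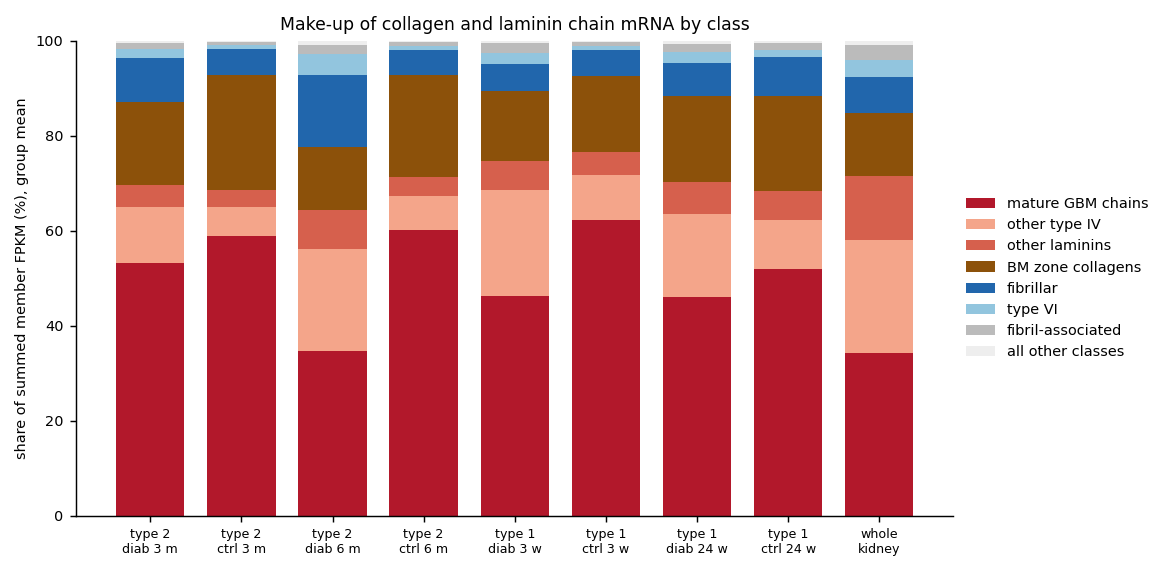
Share of the members' summed FPKM held by each class, as the mean of each group, for the 8 TRAP groups and the whole kidney library. Mature glomerular chains hold 34.8% in type 2 diabetic libraries at 6 months, against 60.2% in their controls, and fibrillar chains 15.2%, against 5.40%.

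Of the mature chains, Col4a3, Col4a4, Col4a5 and Lamb2 moved with each other across libraries. Over the 36 TRAP libraries, Pearson's r of log2 CPM was 0.926 between Col4a3 and Col4a4, 0.952 between Col4a3 and Col4a5 and 0.914 between Col4a3 and Lamb2. Between Col4a3 and Nphs1, the nephrin gene, it was 0.934. Lamb1 had an r of -0.69 with Lamb2, and Col4a1 of -0.56 with Col4a3. Outside the members, the 5 genes most like Col4a3 were Plat (0.961), Thsd7a (0.960), Sema3e (0.945), Colec12 (0.945) and Enpep (0.942), and those most like Col3a1 were Pdgfrb (0.881), Fbn1 (0.873), Ppp1r18 (0.862), Vcam1 (0.859) and Fn1 (0.858). All of these are descriptions over libraries that share groups.

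The type IV genes sit in head-to-head pairs, with the starts of both genes near each other or overlapping. Positions are on GRCm38. Col4a4 (chr1:82448423-82586849, minus strand) and Col4a3 (chr1:82586921-82722059, plus strand) leave 71 bases between them. Col4a1 (chr8:11198423-11312826, minus) and Col4a2 (chr8:11312805-11449287, plus) share 22 bases at their starts, and their r was 0.984. Col4a6 (chrX:141165403-141474076, minus) and Col4a5 (chrX:141475385-141689234, plus) are 1308 bases apart, and their r was 0.698. An antisense transcript, C430014B12Rik, shares 563 exon bases with Col4a3, and since strand use in counting is not stated, their reads cannot be told apart there.

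Because Col4a3, Col4a4 and Col4a5 fell together at 6 months and Col3a1 rose, the stretches before their starts are shown, from RefSeq's promoter windows on GRCm38.p6. Capitals mark a match on either strand to one of 4 short motifs. These were the GC box, searched as GGGCGG, and the box bound by NF-Y, searched as CCAAT. The TATA box was searched with the letters TATAAA. The core bound by many homeodomain factors was searched with TAATTA. No marked match overlaps another. The first stretch is the whole interval between Col4a4 and Col4a3 (chr1:82586850-82586920, minus strand, the sense of Col4a4). The second lies before Col4a5 (chrX:141475169-141475384, plus strand) and the third before Col3a1 (chr1:45311288-45311537, plus strand).
Col4a3-Col4a4: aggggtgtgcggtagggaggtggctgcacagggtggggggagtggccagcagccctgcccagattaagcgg
Col4a5: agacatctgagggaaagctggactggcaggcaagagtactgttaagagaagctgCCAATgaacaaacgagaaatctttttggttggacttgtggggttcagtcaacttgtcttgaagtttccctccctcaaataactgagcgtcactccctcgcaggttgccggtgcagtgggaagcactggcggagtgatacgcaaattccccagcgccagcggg
Col3a1: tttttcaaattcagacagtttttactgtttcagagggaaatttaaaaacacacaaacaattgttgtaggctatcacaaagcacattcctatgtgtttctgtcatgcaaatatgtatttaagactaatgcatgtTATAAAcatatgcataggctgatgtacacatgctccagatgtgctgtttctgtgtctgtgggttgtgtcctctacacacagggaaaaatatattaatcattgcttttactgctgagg

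The 3 stretches differ in base composition, with 69% G and C between Col4a4 and Col4a3, 52.3% before Col4a5 and 35.2% before Col3a1. The Col4a3-Col4a4 stretch holds none of the 4 motifs, the Col4a5 stretch 1 CCAAT and the Col3a1 stretch 1 TATAAA. The printed Col4a5 stretch stops before the gene's start, and the whole RefSeq window of Col4a5 also holds GGGCGG. RefSeq windows of 250 bases before and 50 after the start were at hand for 40 of the 55 members, 44 windows in all. GGGCGG was found in 26 of the 44 (59.1%), and in 35.7% of all 32851 windows. CCAAT was in 14 (31.8%, against 37.4% of all), TATAAA in 5 (11.4%, against 13.6%) and TAATTA in 2 (4.55%, against 5.29%). A match is a description of the letters only.

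**Figure D5:**
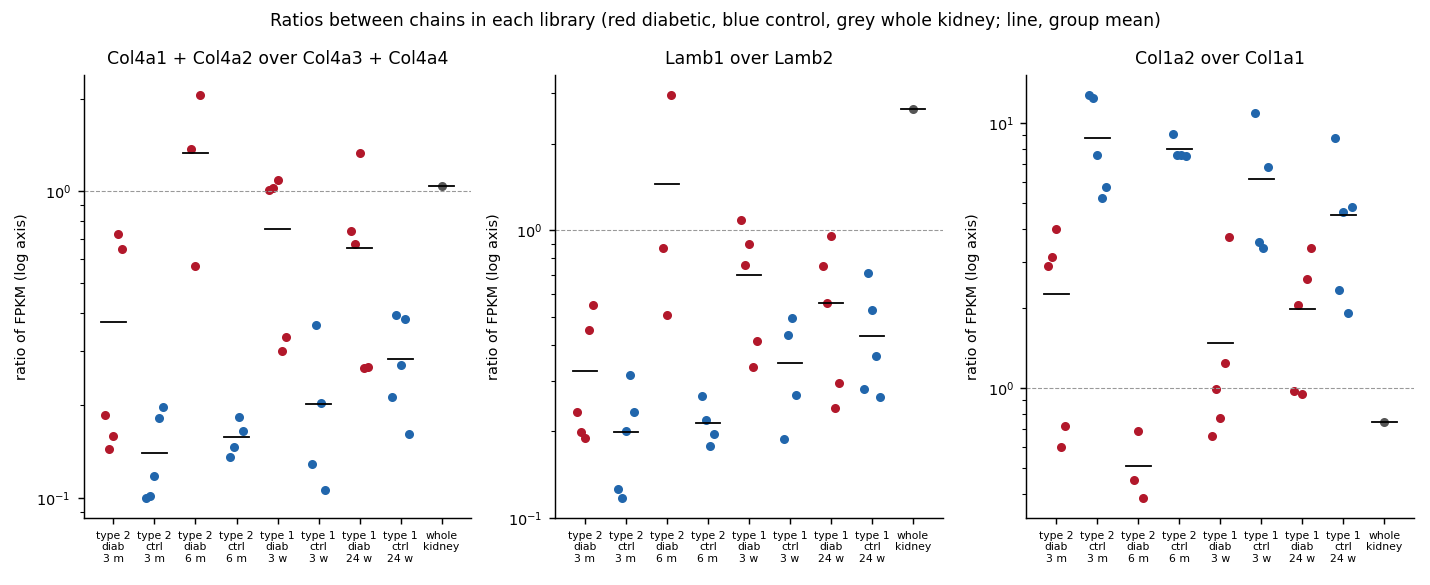
Ratios of FPKM between chains in every library, on log axes, with group means as lines: Col4a1 plus Col4a2 over Col4a3 plus Col4a4, Lamb1 over Lamb2, and Col1a2 over Col1a1. The 3 diabetic libraries at 6 months of the type 2 model lie above their 4 controls in the first and second ratio and below them in the third.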

How the data were processed

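Ribosome-bound RNA of podocytes (36 TRAP libraries) and total RNA of 1 whole kidney were sequenced. The labels name a NuGEN Ovation kit for cDNA, fragmented afterwards. The deposited raw counts per gene were made with cutadapt 1.16, STAR, FastQC and featureCounts 1.15.2, per the submitters' processing notes, which name mm9. The coordinates in the tables are those of GRCm38: 81.54% of the 32108 genes have the same chromosome, start and end in GENCODE M21. The authors also deposited FPKM, which matched values recomputed from the counts, lengths and totals within 0.001 in 100% of cells. Strand use in counting is not stated.

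Counts were fitted on the whole table in R 4.3.3 with edgeR 4.0.16 (TMM, default filter on low counts by group, robust quasi-likelihood F test, Benjamini-Hochberg adjustment, threshold 0.05): 17 libraries of the type 2 model, 19 of the type 1 model, and all 36 TRAP libraries for comparisons between models. SE is the log2 change over the square root of F. CPM uses TMM factors over 37 libraries. Ratios to kidney use CPM plus 0.5, with an exact 95% Poisson interval on the kidney count that covers counting error only. Correlations use log2 CPM with a prior count of 3. Alternatives covered DESeq2 1.42.0, limma 3.58.1 on log2 of FPKM plus 0.1, other factors, filters and sets of libraries, a replicate block and leaving out libraries. The steps were tested on simulated data. Figures come from Python 3.11.15 with matplotlib 3.10.9.

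The members and gene lists were chosen with earlier results of these data known. The results of 1 member are counted in the totals and are otherwise not reported here. Values are given for the type IV chains, the main laminin, fibrillar and type VI chains and every other called member with a mean of at least 10 CPM. Other called members are named with their change only, and up to 4 called genes of lowest p are named per pathway list. No 2 replicate libraries were identical.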

Additional observations from a re-analysis of the deposited data

Results flagged for a closer look

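Single libraries stood apart from the rest of their group in 10 of 140 sets of values examined, where chance flags about 1 in 20 groups. Col4a6 was low in diabetic library 5 of the type 2 model at 3 months (11.97 CPM) and in control library 4 at 6 months (13.7 CPM), and high in diabetic library 4 of the type 1 model at 3 weeks (19.7 CPM). Col1a2 was high in diabetic library 4 of the type 2 model at 3 months (419 CPM). At 24 weeks of the type 1 model, diabetic library 2 was high for Lama4 (7.17 CPM) and Col6a2 (28.2 CPM) and diabetic library 1 for Col6a3 (67.7 CPM). Among the controls at 24 weeks, library 4 was high for Col1a1 (93.6 CPM) and Col3a1 (113 CPM), and library 2 was low for Col4a4 (523 CPM).

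Col27a1 was the member whose early change differed between the models, with a log2 difference of 3.68 and an adjusted p of 0.00276 in the edgeR interaction (SE 0.591). It lay below all controls in 5 of 5 diabetic libraries of the type 1 model at 3 weeks.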

How the results depend on the processing

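Every comparison was refitted under other settings, and the cause of each shift was not tested. The share of all genes called under each setting is not given, so these counts have no background. At 3 months of the type 2 model the 5 members called were 3 by limma on FPKM, 3 with a replicate block and 3 without diabetic libraries 4 and 5 (chosen after seeing the data). The 1 fibrillar chain called higher was 3 by DESeq2, 3 with a mean of at least 1 CPM and 3 in the fit of all 36 libraries, and 0 without a filter, by limma, with the block, with the libraries of the comparison only and without libraries 4 and 5, where the 1 mature chain lower was also 0. Without libraries 4 and 5, Col4a1, Col4a2 and Col3a1 reversed to -0.22, -0.10 and -0.11, and 19 members, not 0, had a called difference between 6 and 3 months. At 3 weeks of the type 1 model the 10 members called were 5 in the comparison's libraries only and 0 without diabetic libraries 1 to 3 (chosen after seeing the data). The 2 fibrillar chains higher were 1 without a filter, by limma or in the comparison's libraries, and 0 in the fit of 36 or without libraries 1 to 3. The 1 mature chain lower was 0 by limma, in the comparison's libraries or without libraries 1 to 3, and 2 with the block. At 24 weeks the 1 member called was 3 by DESeq2, 2 in the comparison's libraries and 0 by limma. The late difference between models had 8 members by DESeq2 and 1 with a mean of at least 1 CPM, in place of 0. The early one had 2 without libraries 4 and 5 and 0 without libraries 1 to 3, in place of 1.

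Leaving out 1 library at a time gave 2 to 8 members at 3 months (2 without control 1, 8 without diabetic library 3), 17 to 27 at 6 months, 2 to 15 at 3 weeks (2 without diabetic library 3, 4 without diabetic library 1 or 2 or control 4) and 0 to 2 at 24 weeks. The differences gave 0 to 6 (6 and 3 months), 0 to 0 (24 and 3 weeks), 0 to 7 (late) and 1 to 1 (early), and the kidney comparison 10 to 12 members above 1. Fibrillar chains higher were 0 to 4, 3 to 6, 0 to 2 and 0 to 0 over the 4 comparisons in that order, and mature chains lower 0 to 1, 4 to 4, 0 to 1 and 0 to 0. At 24 weeks Lamb2 ranged from -0.29 to 0.036 and Col3a1 from -0.14 to 0.48.

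The same replicate numbers occur in diabetic and control groups. Same-numbered libraries showed little shared deviation (r from -0.061 to 0.148 at 3 months, -0.081 to -0.019 at 6 months, -0.082 to 0.093 at 3 weeks and -0.058 to 0.162 at 24 weeks). The best match was the own number in 2 of 5, 0 of 3, 2 of 4 and 1 of 5 pairs, in that order. With so few pairs, pairing by number is not excluded, and the main fits do not use it. With the replicate block 25 members were called at 6 months, 13 at 3 weeks and 1 at 24 weeks. Depth limits chains near 0 CPM, such as Col9a1.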
